A study of Mus musculus with 10 samples.

Results

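The genes described here make up a prohormone-processing and dense-core granule set of 9 genes, Pcsk1, Pcsk2, Cpe, Pcsk1n, Scg5, Scg2, Scg3, Vgf and Resp18. They were chosen by name, as the rows of the deposited gene count files that carry these symbols, and all 9 were found among 35006 gene rows. Expression was measured by RNA-seq of poly-A RNA from FACS-sorted mouse small-intestinal crypt cells, with 10000 live EpCAM+ cells per population and 2 libraries for each of 5 populations. EpCAM is an epithelial surface protein. The mice were C57BL6/J animals of the EF1a-OSCAR line, in which an EF1a promoter at the Rosa26 locus drives the 2 fluorescent proteins of the OSCAR reporter, mCherry and VeN90. VeN90 is a Venus variant whose fluorescence falls when CDK9, the kinase that phosphorylates RNA polymerase II on Ser2, phosphorylates it, so that a high OSCAR signal marks cells with low polymerase II activity. EF1a in the population names refers to the general expression of both proteins from that promoter. P1 was the OSCARlow EF1alow gate, P2 OSCARhigh EF1alow, P3 OSCARlow EF1ahigh, P4 OSCARmed EF1alow and P5 OSCARmed EF1ahigh. All 5 populations carried the transgene, with its stop cassette removed by Vasa-Cre, so none of them is a reporter-free control. The study calls the replicates biological. The age and number of the mice behind each library are not given in the sources used here, and p-values measure the spread between these libraries.

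Peptide hormones are made as inactive precursors, sorted into dense-core granules in the trans-Golgi, cut at pairs of basic residues by the prohormone convertases and trimmed by carboxypeptidase E. Pcsk1 and Pcsk2 encode the 2 convertases that act inside granules, and Cpe encodes the carboxypeptidase. Pcsk1n encodes proSAAS, an inhibitor of the Pcsk1 product, and Scg5 encodes 7B2, a chaperone that the Pcsk2 product needs to become active. Scg2 and Scg3 encode granins, acidic proteins that help to form the granule and its cargo, Vgf encodes a granin-like precursor of secreted peptides, and Resp18 encodes an endocrine secretory-pathway protein. In the intestinal epithelium this machinery is best known from enteroendocrine cells, rare hormone-secreting cells that arise from crypt progenitors through Neurog3.

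Promoter sequences of the genes that shared a short motif are shown, since the genes of the set were highest in the same libraries. RefSeq entries on GRCm38.p6 were found for 7 of the 9 genes, and Cpe and Vgf had no entry. The window was the 250 bases before the annotated start. The letters searched were TGACGTCA, the palindromic cyclic AMP response element, and the shorter TGACG, which also lies within it. An E-box (CAGNTG), which basic helix-loop-helix factors bind, and a TATA box core (TATAA) were searched too, all on both strands. TGACGTCA occurred in the windows of Pcsk1 and Scg2 and in 1.55% of 32851 mouse promoters. TGACG occurred in those of Pcsk1, Scg2, Scg5, Scg3 and Pcsk2 and in 17.8% of all promoters. The E-box occurred in 5 of the 7 windows and in 44.8% of all. The TATA core occurred in the windows of Pcsk1n and Scg2 and in 22.8% of all. The windows lay on chr13:75089607-75089856 (plus strand) for Pcsk1, chr1:79440027-79440276 (minus) for Scg2, chr2:113829092-113829341 (minus) for Scg5, chr9:75684057-75684306 (minus) for Scg3 and chr2:143545883-143546132 (plus) for Pcsk2. They are printed 5′ to 3′ on the gene's strand, with TGACG on either strand and TGACGTCA in capitals.
Pcsk1: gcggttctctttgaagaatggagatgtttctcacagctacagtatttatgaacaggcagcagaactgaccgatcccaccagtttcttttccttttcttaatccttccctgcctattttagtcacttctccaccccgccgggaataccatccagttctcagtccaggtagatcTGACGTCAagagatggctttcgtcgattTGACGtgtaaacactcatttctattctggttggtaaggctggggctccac
Scg2: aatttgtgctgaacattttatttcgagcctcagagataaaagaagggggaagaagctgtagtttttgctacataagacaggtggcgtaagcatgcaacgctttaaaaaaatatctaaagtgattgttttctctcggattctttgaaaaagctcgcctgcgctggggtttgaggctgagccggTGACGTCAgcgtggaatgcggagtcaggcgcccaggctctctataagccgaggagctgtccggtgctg
Scg5: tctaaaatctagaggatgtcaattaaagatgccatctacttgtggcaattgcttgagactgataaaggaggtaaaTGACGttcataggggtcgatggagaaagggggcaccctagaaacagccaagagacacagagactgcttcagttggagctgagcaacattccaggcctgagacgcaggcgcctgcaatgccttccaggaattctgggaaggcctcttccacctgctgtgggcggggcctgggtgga
Scg3: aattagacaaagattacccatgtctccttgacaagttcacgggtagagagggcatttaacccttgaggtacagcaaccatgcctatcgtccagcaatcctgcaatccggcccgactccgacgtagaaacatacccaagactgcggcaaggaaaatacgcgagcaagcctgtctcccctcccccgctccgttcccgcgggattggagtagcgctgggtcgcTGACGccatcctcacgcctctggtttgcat
Pcsk2: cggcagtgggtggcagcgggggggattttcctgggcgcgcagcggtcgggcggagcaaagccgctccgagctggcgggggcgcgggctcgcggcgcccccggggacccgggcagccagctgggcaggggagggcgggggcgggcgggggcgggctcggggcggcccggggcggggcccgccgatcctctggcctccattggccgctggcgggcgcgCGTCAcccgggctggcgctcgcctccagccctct
The full TGACGTCA lay 78 to 71 bases before the start of Pcsk1 and 68 to 61 bases before that of Scg2, and Pcsk1 held a second TGACG 50 to 46 bases before its start. The TGACG of Scg5 lay 175 to 171 bases and that of Scg3 30 to 26 bases before the start, and that of Pcsk2, on the opposite strand, 34 to 30 bases. GC content ranged from 46.8% in Pcsk1 to 82.4% in Pcsk2, against a median of 52.4% over all promoters, and the Pcsk2 window held 35 CpG dinucleotides against a median of 6. A motif match describes the letters in a window and is not evidence of a bound factor.

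The files held 3857612 to 6485823 gene counts per library. Levels are given as CPM, counts per 1000000 counts of a library scaled for its composition, and 3 counts, taken as the detection floor, came to 0.297 to 1.59 CPM. Mitochondrial genes took 59.2% and 36.1% of the counts of the 2 libraries labelled P3 and 1.04% to 5.19% of those of the other 8, so low counts in P3 rest on fewer nuclear reads. For P2 and P3, the deposited labels are at odds with the study's own account of its gates. That account places the secretory cell markers in P3, whereas the libraries labelled P2 hold them here. The study drew it from marker sets in its RNA-seq and reports that independent RT-qPCR of some markers bore it out. The reporter transcripts were not analysed here, so the counts could not settle which labels are right. The libraries are named throughout by their labels. If the labels of P2 and P3 were exchanged, every result given for P2 would belong to the OSCARlow EF1ahigh gate. The 6 epithelial markers summed to 3258 to 6434 CPM in the 10 libraries.

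All 9 genes were highest in both libraries labelled P2. Summed over the 9 genes, the level was 365 CPM in replicate 1 and 884 CPM in replicate 2 of P2, against 6.86 to 66.1 CPM in the other 8 libraries. The 4 libraries of P4 and P5 reached 21.4 to 66.1 CPM, and those of P1 and P3 stayed between 6.86 and 17.6 CPM, so that these 2 sets of libraries did not overlap in the sum. Gene by gene, this held for Pcsk1 and Scg3, 2 of the 8 genes tested, beside 8.02% of all genes tested. In bulk libraries, fewer cells of a type and less RNA per cell cannot be told apart. Pcsk2 did not pass the filter on low counts. Of the 8 genes tested, all 8 were higher in P2 than in the average of the other 4 populations, whereas 16.3% of the 13708 genes tested were called higher and 27.0% were called in either direction (edgeR's quasi-likelihood test, Benjamini-Hochberg adjusted p under 0.01). In CPM, both P2 libraries lay above all of the other 8 for these 8 genes and for 20.2% of all genes tested. Pcsk1n, Vgf and Resp18 passed the filter only through their counts in P2 and so had to differ, which means that these counts describe the genes that passed and do not count as support. Fold changes are given here against the average of P1, P4 and P5, because 3 of the genes had no count in P3 and their fitted values there depend on the prior count. The median log2 fold change of the 8 genes was 4.93 on this scale, against -0.01 over all genes tested. The 8 include Pcsk1n, Vgf and Resp18, so their median too describes the genes that passed and does not count as support. The value over all genes depends on the scaling.

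**Figure D1:**
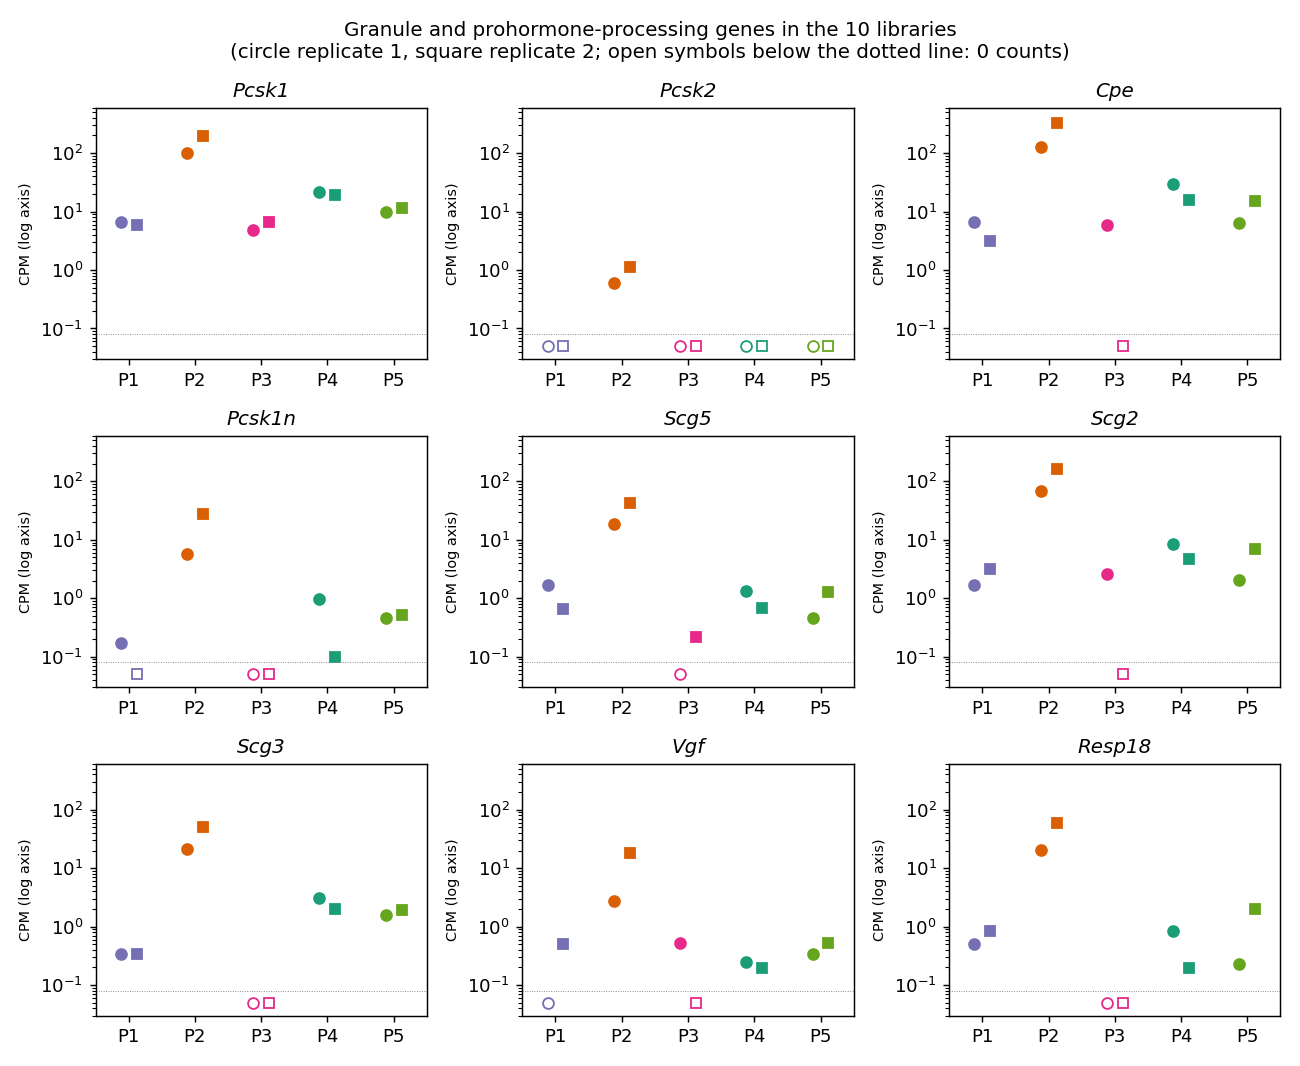
Level of each of the 9 genes in the 10 libraries, in CPM on a log axis, by population on the horizontal axis. Circles are replicate 1 and squares replicate 2, open symbols below the dotted line are libraries with 0 counts, and the P2 libraries stand highest in every panel.

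Pcsk1, the convertase of the enteroendocrine granule, lies on chr13:75227274-75269946 (plus strand, NCBIM37, the build of mm9) and was the only gene of the set with more than 5 counts in every library. It stood at 99.7 and 194 CPM in P2 and at 21.2 and 19.2 CPM in P4. In P5 it stood at 9.83 and 11.7, in P1 at 6.59 and 5.84 and in P3 at 4.76 and 6.64 CPM. No P2 library overlapped any other, the P4 libraries lay above those of P5, and the P5 libraries lay above those of P1 and P3, which overlapped each other. The log2 fold change of P2 over the average of P1, P4 and P5 was 3.73 ± 0.23 (SE, adjusted p = 2.03e-05), the smallest of the 8 genes. Its promoter is 1 of the 2 with a full TGACGTCA.

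Pcsk2, the other granule convertase (chr2:143371892-143642021, plus strand), was at the limit of detection. It had 2 and 5 counts in P2, or 0.608 and 1.11 CPM, and 0 counts in the other 8 libraries. Against a floor of 3 counts over each population, the 7 counts in P2 came to 3.57 times the level in P1. They came to 5.48 times that in P4 and 5.46 times that in P5. The ratio against P3 was 1.92 because those libraries were shallow in nuclear reads. These ratios take the P2 counts as exact and are not lower bounds. Its exons share 260 and 99 bases with C630020P19Rik and Gm12360 on the opposite strand, and the reads were counted without strand, so these few counts are uncertain.

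Cpe (chr8:67071355-67171837, minus strand) had the highest CPM of the set in both P2 libraries, 128 and 329. It stood at 30.1 and 16.0 CPM in P4. It stood at 6.40 and 14.9 CPM in P5 and at 6.59 and 3.17 CPM in P1, while P3 had 5.82 CPM in replicate 1 and no count in replicate 2. The P2 libraries did not overlap the rest, and the P4 libraries lay above those of P5, P1 and P3. The log2 fold change was 4.43 ± 0.56 (adjusted p = 0.000367).

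Of the 2 genes whose products bind a convertase, Pcsk1n (chrX:7496948-7501536, plus strand) had 5.78 and 27.1 CPM in P2 and at most 0.980 CPM elsewhere. It had no count in either P3 library or in P1 replicate 2. Its log2 fold change was 5.76 ± 0.79 (adjusted p = 0.000863), and the P2 replicates differed 4.70-fold. It shares 135 exon bases with Eras on the opposite strand, and Eras had 0 counts in all 10 libraries. Scg5 (chr2:113616519-113669278, minus strand), the chaperone of the Pcsk2 product, had 18.9 and 42.0 CPM in P2. The other 8 libraries held 0 to 1.69 CPM with overlapping values in P1, P4 and P5 and the lowest in P3, and the log2 fold change was 4.89 ± 0.47 (adjusted p = 9.42e-05). The chaperone thus had 251 counts in P2 where the convertase it serves had 7.

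Among the granins, Scg2 (chr1:79431244-79436665, minus strand) had 68.1 and 162 CPM in P2. P4 had 8.33 and 4.65 CPM, P5 had 2.06 and 6.97, P1 had 1.69 and 3.17 and P3 had 2.65 and 0, so that the populations other than P2 overlapped apart from P4, which lay above P1 and P3. The log2 fold change was 4.79 ± 0.54 (adjusted p = 0.000195). Scg3 (chr9:75491071-75531803, minus strand), the granin that brings chromogranin A to granule membranes, had a count in every library except those of P3. P2 had 21.0 and 51.4 CPM, P4 had 3.06 and 1.98, P5 had 1.60 and 1.90, P1 had 0.338 and 0.334, and P3 had none. All 4 libraries of P4 and P5 lay above those of P1 and P3, and the log2 fold change of P2 was 4.96 ± 0.39 (adjusted p = 6.74e-05).

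Vgf (chr5:137506165-137509221, plus strand) was the least even of the set between the P2 libraries, with 2.74 CPM in replicate 1 and 18.0 CPM in replicate 2. The other 8 libraries held 0 to 0.529 CPM, at or near the floor. Its log2 fold change was 5.08 ± 0.83 (adjusted p = 0.00139). Resp18 (chr1:75268774-75274990, minus strand) had 20.4 and 60.1 CPM in P2 and 0 to 2.01 CPM elsewhere, with its highest other value in P5 replicate 2 and no count in P3. Its log2 fold change was 5.76 ± 0.64 (adjusted p = 0.000310).

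Every one of these genes was higher in P2 replicate 2 than in replicate 1. The ratio of the 2 libraries ran from 1.94 for Pcsk1, through 2.23 for Scg5, 2.38 for Scg2, 2.45 for Scg3, 2.58 for Cpe and 2.95 for Resp18, to 4.70 for Pcsk1n and 6.58 for Vgf, whereas the median over 11278 genes was 1.06. These ratios lay between the 93.1 and 99.8 percentiles of all genes. Without P2 replicate 2, 6 of the 8 genes were still called against the average of the other populations, and Pcsk1n and Vgf were not (log2 fold change 5.22, adjusted p = 0.0185, and 3.31, adjusted p = 0.0844). Without P2 replicate 1, and without either P3 library, all 8 were called.

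Per kilobase of exon, the order of levels in P2 was Cpe at 109 ± 68.3 CPM per kb (SD, n = 2), Resp18 at 53.8 ± 37.5, Scg2 at 46.3 ± 26.7, Pcsk1 at 45.2 ± 20.5, Scg5 at 19.4 ± 10.4, Scg3 at 16.1 ± 9.56, Pcsk1n at 7.50 ± 6.89, Vgf at 4.06 ± 4.23 and Pcsk2 at 0.109 ± 0.0451. The SDs mostly hold the shift that the 9 genes shared between the 2 libraries. Library by library, Cpe lay above Resp18 in both, whereas Resp18, Scg2 and Pcsk1 changed places between the libraries (27.2, 27.4 and 30.8 CPM per kb in replicate 1 and 80.3, 65.2 and 59.7 in replicate 2). From Pcsk1 down to Pcsk2 each gene lay above the next in both libraries. Resp18, the shortest transcript of the set, ranked second per length although its CPM was below those of Cpe, Pcsk1 and Scg2.

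The comparisons between single populations ask how the set changes with the OSCAR signal at one EF1a level, or with EF1a at one OSCAR level. By label, P2 against P1 compares OSCAR high with low, both EF1alow, and with the labels of P2 and P3 exchanged it would compare EF1a high with low at low OSCAR. In the comparisons of P2 with P1, P3, P4 and P5, Pcsk1n, Vgf and Resp18 again entered the test only through their P2 counts. The counts of called genes there thus describe the genes that passed and do not count as support. Against P1, 7 of the 8 genes were called higher in P2, beside 13.9% of all genes. The exception was Vgf (log2 fold change 5.27 ± 1.31), whose adjusted p lay just above the threshold. After scaling for library size, the summed counts were 24.8 times (95% exact counting interval 19.6 to 31.8) those of P1 for Pcsk1, 50.1 times (38.6 to 66.3) for Cpe and 115 times (44.4 to 424) for Scg3, intervals that cover counting error only. Without P1 replicate 1, 3 genes passed (Pcsk1, Scg5 and Scg3), without P1 replicate 2, 3 passed (Pcsk1, Scg2 and Scg3), and without P2 replicate 2, 4 passed (Pcsk1, Cpe, Scg2 and Scg3). Against P3, 7 were called, beside 10.5% of all genes, and Vgf was again the exception (adjusted p = 0.0175). Against the floor of 3 counts over both P3 libraries, the level in P2 was 82.3 times for Scg3, 92.5 times for Resp18 and 38.7 times for Pcsk1n. These 3 ratios take the P2 counts as exact. For Pcsk1 the level in P2 was 25.3 times (18.4 to 35.7) that in P3.

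By label, P2 against P4 compares OSCAR high with medium, both EF1alow. With the labels of P2 and P3 exchanged, these populations would differ in both OSCAR and EF1a. Against P4, 5 genes were called higher in P2, beside 8.02% of all genes. These were Pcsk1 (log2 fold change 2.86 ± 0.32), Scg5 (4.90 ± 0.71), Scg2 (4.15 ± 0.78), Scg3 (3.85 ± 0.54) and Resp18 (6.27 ± 1.02). Cpe (3.31 ± 0.79, adjusted p = 0.0138), Pcsk1n (4.95 ± 1.11, adjusted p = 0.0125) and Vgf (5.45 ± 1.28, adjusted p = 0.0123) missed the threshold. When P2 replicate 2 or either P4 library was left out 1 gene was called, Pcsk1 in each case, and 8 were called without either P3 library. Against P5, 6 genes were called, beside 8.75% of all genes, and Pcsk1n (adjusted p = 0.0112) and Vgf (adjusted p = 0.0188) were not. Here Pcsk1 alone was called without P2 replicate 2 or P5 replicate 1, and 2 genes, Pcsk1 and Scg5, without P5 replicate 2. The log2 fold changes of P2 over any other population or their average were above 0 under every alternative run, the lowest being 1.73, although Vgf had no value under the stricter filter on low counts.

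**Figure D2:**
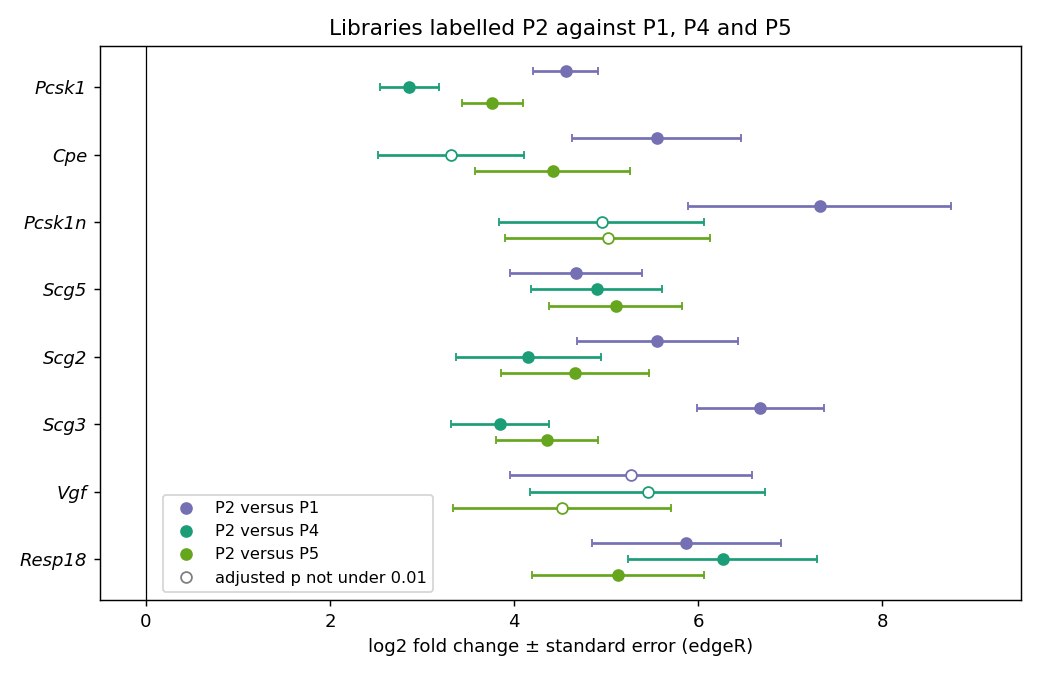
Log2 fold change of P2 over P1, P4 and P5 for the 8 genes tested, with bars for the standard error from edgeR and open symbols for an adjusted p not under 0.01. Every value lies above 0, and the distance to P4 is smaller than that to P1 for Pcsk1, Cpe, Pcsk1n, Scg2 and Scg3.

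Between P1 and P4, 1 gene of the set was called. Pcsk1 rose from P1 to P4 (OSCAR medium against low, both EF1alow) by 1.70 ± 0.33 on the log2 scale (adjusted p = 0.00423), as 1 of 8 genes, beside 9.44% of all genes called higher. The call was lost without either P1 or either P4 library. Scg3 differed by 2.83 ± 0.72 (adjusted p = 0.0149) and Cpe by 2.23 ± 0.85 (adjusted p = 0.0590), while the differences of Scg5, Vgf and Resp18 were smaller than their SE. In CPM, all 4 P4 and P5 libraries lay above all 4 P1 and P3 libraries for Pcsk1 and Scg3, 2 of the 8 genes, beside 8.02% of all genes tested. P4 had the second-highest mean for Pcsk1, Cpe, Pcsk1n, Scg2 and Scg3, P5 for Vgf and Resp18, and P1 for Scg5. For Pcsk1n, Vgf and Resp18 most counts outside P2 were near the floor of 3, so their order there was not detectable. Pcsk1n had 9 counts in P4 and 9 in P5.

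In the remaining comparisons, none of which involves P2 by label, the quasi-likelihood test called no gene of the set. Between P5 and P4 (EF1a high against low at medium OSCAR) the quasi-likelihood test called 0 of the 8 genes and 0.0% of all genes. Pcsk1 alone had an unadjusted p under 0.05, at a log2 fold change of -0.90 ± 0.31 with both P5 libraries below both P4 libraries, and DESeq2 called 0. Between P3 and P1 (by label, EF1a high against low at low OSCAR, which with exchanged labels would be the comparison of P2 with P1 above, where 7 genes were called) 0 genes were called, beside 15.6% of all genes, with 0 at an unadjusted p under 0.05 and 0 by DESeq2. The difference between these 2 EF1a contrasts was called for 0 of the 8 genes, beside 0.817% of all genes, with 0 at an unadjusted p under 0.05 and 0 by DESeq2. With exchanged labels this difference would use P2 in place of P3, which was not tested. Between P5 and P1, 0 were called, beside 19.8% of all genes, with 2 at an unadjusted p under 0.05, Pcsk1 and Scg3, and 0 by DESeq2. Between P5 and P3 (by label, OSCAR medium against low, both EF1ahigh), 0 were called, beside 0.0% of all genes. In that comparison 2 had an unadjusted p under 0.05, and DESeq2 called 0. With the labels of P2 and P3 exchanged, it would be the comparison of P2 with P5 above, where 6 genes were called. Between P3 and P4, 0 were called, beside 0.0% of all genes, with 4 at an unadjusted p under 0.05, while DESeq2 called 1, Pcsk1 (log2 fold change -1.83, adjusted p = 0.00430). Over all 13708 genes tested, 351 had an unadjusted p under 0.05 between P5 and P4 and 6154 between P3 and P1. The number was 6729 between P5 and P1, 1587 between P5 and P3 and 2080 between P3 and P4. For the difference between the 2 EF1a contrasts it was 4653. The DESeq2 counts over all genes are not given here.

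The balance within the set also differed between libraries. Pcsk1 took 27.3% (exact 95% interval 24.8 to 30.0) and 21.9% (20.6 to 23.2) of the summed counts of the 9 genes in P2. It took 32.0% and 44.6% of them in P4, 46.0% and 29.4% in P5, 37.5% and 40.2% in P1, and 34.6% (17.2 to 55.7, of 26 counts) in P3 replicate 1. The share was lowest in the P2 libraries. The interval of P2 replicate 2 overlapped that of P3 replicate 1 and of no other library, whereas that of P2 replicate 1 also overlapped those of both P1 libraries, P4 replicate 1 and P5 replicate 2. In P3 replicate 2, 30 of 31 counts fell on Pcsk1 (96.8%, 83.3 to 99.9), so that the level of the set in that library is the level of this gene. The other 8 genes had 1 count there, against 17 in P3 replicate 1 and 872 and 3106 in P2. Cpe took 35.0% and 37.2% in P2, within the range of the other populations. Resp18 took 5.58% and 6.79% in P2 against 1.30% and 0.46% in P4, but also 5.75% in P1 replicate 2 and 5.04% in P5 replicate 2, with intervals that overlapped those of P2.

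**Figure D3:**
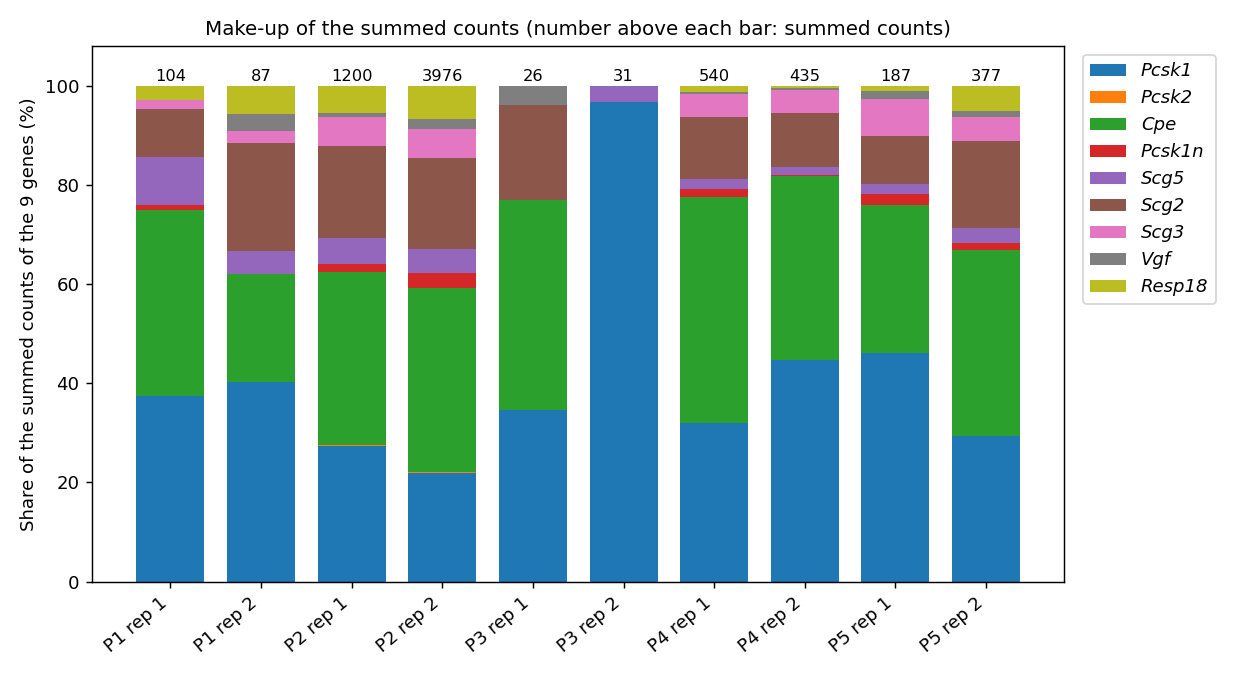
Share of each gene in the summed counts of the 9 genes in each library, in percent, with the summed count above each bar. Pcsk1 takes 96.8% in P3 replicate 2, where 31 counts were found, and 21.9% to 27.3% in P2.

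Chga, the chromogranin that is the standard enteroendocrine marker, offers a scale that does not depend on the library total. It had 2789 and 10253 counts in P2 and 22 to 799 in the other libraries. Per 100 Chga counts, Pcsk1 had 11.8 (exact 95% counting interval 10.5 to 13.2) and 8.49 (7.91 to 9.09) counts in P2. It had 27.4 (23.0 to 32.5) and 38.7 (32.6 to 45.8) per 100 Chga counts in P4, 22.7 and 13.9 (11.3 to 17.0) in P5, and 40.2 and 79.5 in P1. It had 12.9 (5.65 to 25.8) and 136 (76.1 to 248) in P3. Relative to Chga, Pcsk1 was thus lowest in the 2 libraries where its CPM was highest, and the intervals of P3 replicate 1, with 9 counts, and P5 replicate 2 overlapped that of P2 replicate 1. Cpe had 15.1 and 14.4 counts per 100 of Chga in P2 and 39.0 and 32.3 in P4, whereas P5, at 14.8 and 17.6, overlapped P2. Scg3 had 2.47 and 2.25 in P2 and 3.96 and 3.99 in P4, with overlapping intervals. Scg5 and Resp18 were not lower in P2 than in P4 on this scale. Scg5 had 2.22 and 1.84 counts per 100 of Chga in P2 and 1.74 and 1.40 in P4, with overlapping intervals, against 10.3 and 9.09 in P1. Resp18 had 2.40 (1.86 to 3.06) and 2.63 (2.32 to 2.97) in P2 and 1.11 (0.444 to 2.30) and 0.40 (0.0482 to 1.45) in P4, while P5 replicate 2, at 2.38, was as high as P2.

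**Figure D4:**
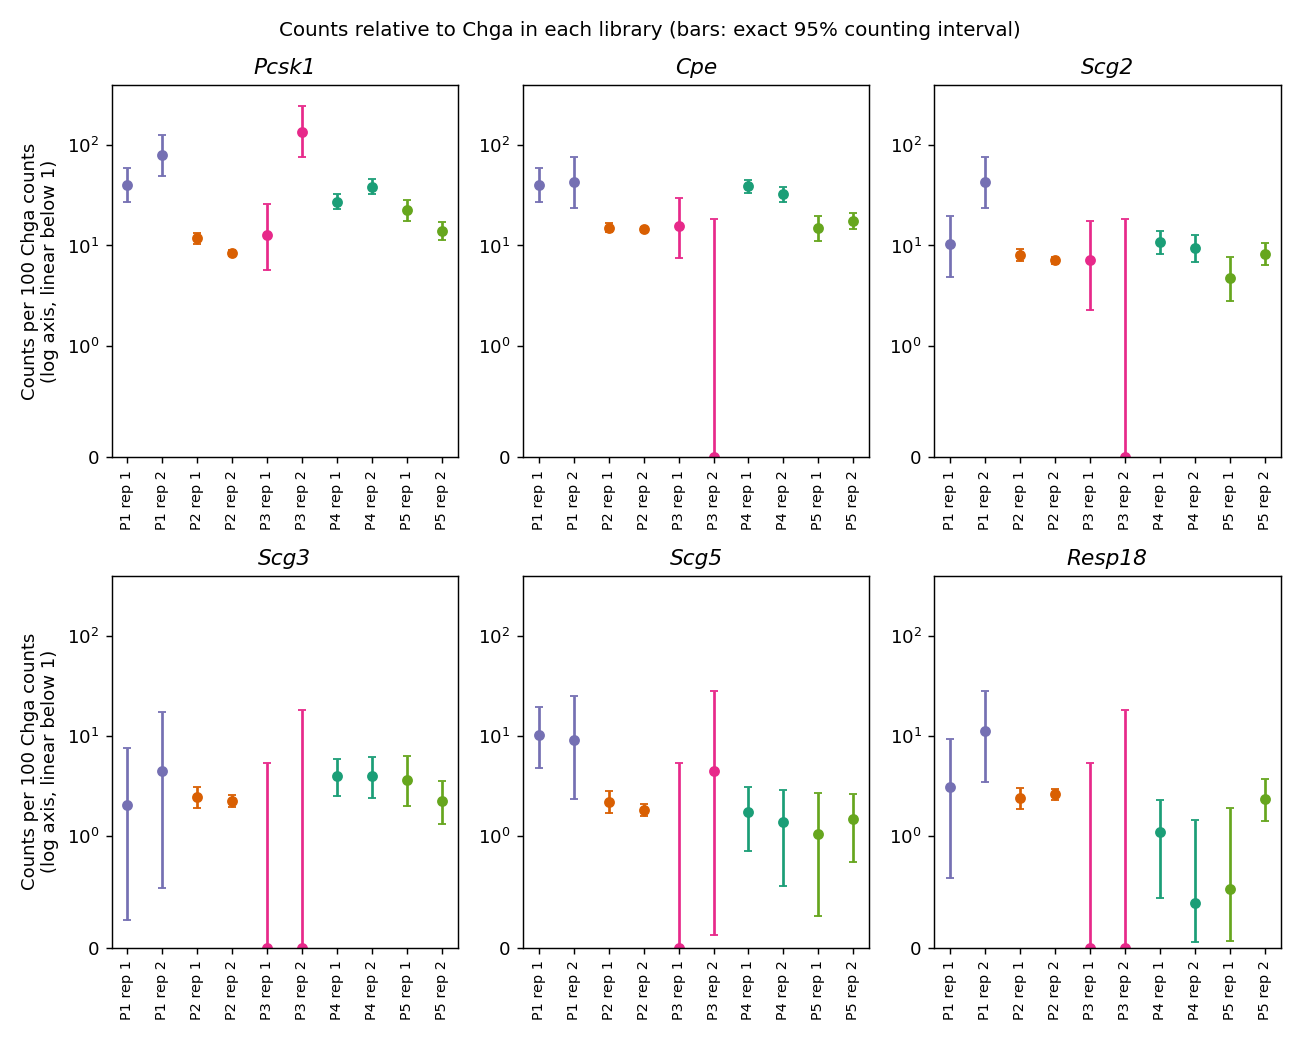
Counts of Pcsk1, Cpe, Scg2, Scg3, Scg5 and Resp18 per 100 Chga counts in each library, on an axis that is logarithmic above 1 and linear below, with exact 95% counting intervals. Pcsk1 sits at 8.49 to 11.8 in P2 and at 27.4 to 38.7 in P4, and Resp18 at 2.40 to 2.63 in P2 and at 0.40 to 1.11 in P4.

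The pathway around these genes was followed with lists of its other parts. Over all genes tested, 16.3% were called higher and 10.7% lower in P2 than in the average of the other 4 populations. In that comparison 6854 of 13708 genes had an unadjusted p under 0.05. The share called against P1, P4 and P5 alone is not given here. Of 28 other granule and release genes, all tested, 23 were higher and 0 lower in P2 than in the average of the other 4, and 22 and 0 against P1, P4 and P5 (median log2 fold change 3.65 on this second scale, which the values of single genes use). Of these 28 genes, 1 reached the limit of the filter in fewer than 2 libraries outside P2. Ptprn, a granule membrane protein, stood at 5.65 ± 0.55 against P1, P4 and P5, Rab3b and Rab3c, small GTPases of exocytosis, at 5.53 ± 0.76 and 4.71 ± 0.39, and Chga at 5.43 ± 0.60. Arfip1 (-0.21 ± 0.17) and A630007B06Rik (0.05 ± 0.23), the most abundant genes of that list that were not called, did not pass the test. Of 20 hormone precursor genes in the files, the substrates of the machinery, 10 were tested and 10 were higher in P2 against the average of the other 4 populations, 9 against P1, P4 and P5 (median 4.77 on the second scale). Sst, the somatostatin precursor, had a log2 fold change of 5.30 ± 0.38, Gip, an incretin precursor, 5.60 ± 1.12, Nts, the neurotensin precursor, 4.85 ± 1.03, and Iapp, the amylin precursor, 6.36 ± 0.60. Nts shows how uneven single hormones were, with 581 counts in P1 replicate 1 and 22 in replicate 2, and 225 and 5175 in P2.

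Processing enzymes outside the set did not move as one. Of 20 such genes, 18 were tested, 6 were higher and 2 lower in P2 than in the average of the other 4, and 7 and 2 against P1, P4 and P5 (median log2 fold change 0.69). Pam, which amidates peptide ends, was higher by 2.96 ± 0.52 (adjusted p = 0.00197 against P1, P4 and P5), and Qpctl, a Golgi glutaminyl cyclase, by 2.65 ± 0.27 (adjusted p = 0.000126). Cpd, Cpm, Ctsl and Pcsk7, named after their values were seen, were higher by 2.46, 1.83, 2.66 and 0.82. The 2 genes that were lower, beside 10.7% of all genes called lower, were Pcsk5 and Pcsk6, convertases that act mainly on growth factors, receptors and matrix proteins. Pcsk5 had 12 and 46 counts in P2 against 345 to 1399 in the other libraries, a log2 fold change of -3.88 ± 0.45 (adjusted p = 0.000231), and Pcsk6 had 1 count in each P2 library against 7 to 100 elsewhere, a ratio of 0.0395 in CPM (exact 95% counting interval 0.00476 to 0.144, adjusted p of the call 0.00375). Furin, a convertase that most cells use, was not called (0.36 ± 0.30, adjusted p = 0.373), nor were Ctsb (-0.39 ± 0.21) and Rnpep (-0.45 ± 0.24). Furin too was named after its value was seen.

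Of 18 tested transcription factors of the enteroendocrine lineage, 16 were higher in P2 than in the average of the other 4 and 15 against P1, P4 and P5 (median 3.26), although 3 of the 18 reached the limit of the filter in fewer than 2 libraries outside P2. Among them were Hhex (4.74 ± 0.53), Lmx1a (4.49 ± 0.49), Isl1 (3.34 ± 0.41) and Etv1 (3.18 ± 0.69). Neurog3, the factor that starts the lineage, was not among them and had its highest counts elsewhere, 120 and 120 in P4, 32 and 36 in P5, 4 and 3 in P1, 0 and 11 in P3, and 0 and 7 in P2. Its P2 libraries overlapped those of P1 and P3, and the log2 fold change of P2 was -1.83 ± 0.94 (adjusted p = 0.158). Rfx3 was not called either (0.69 ± 0.27, adjusted p = 0.0743). Rest encodes a repressor of neuronal and endocrine genes. Of 8 genes for it and its corepressors, 0 were called in P2 by the quasi-likelihood test, with 0 at an unadjusted p under 0.05 and 0 by DESeq2, and Rest itself differed by -0.08 ± 0.21 (adjusted p = 0.797), Rcor1 by -0.09 ± 0.16 and Sin3a by -0.22 ± 0.21.

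**Figure D5:**
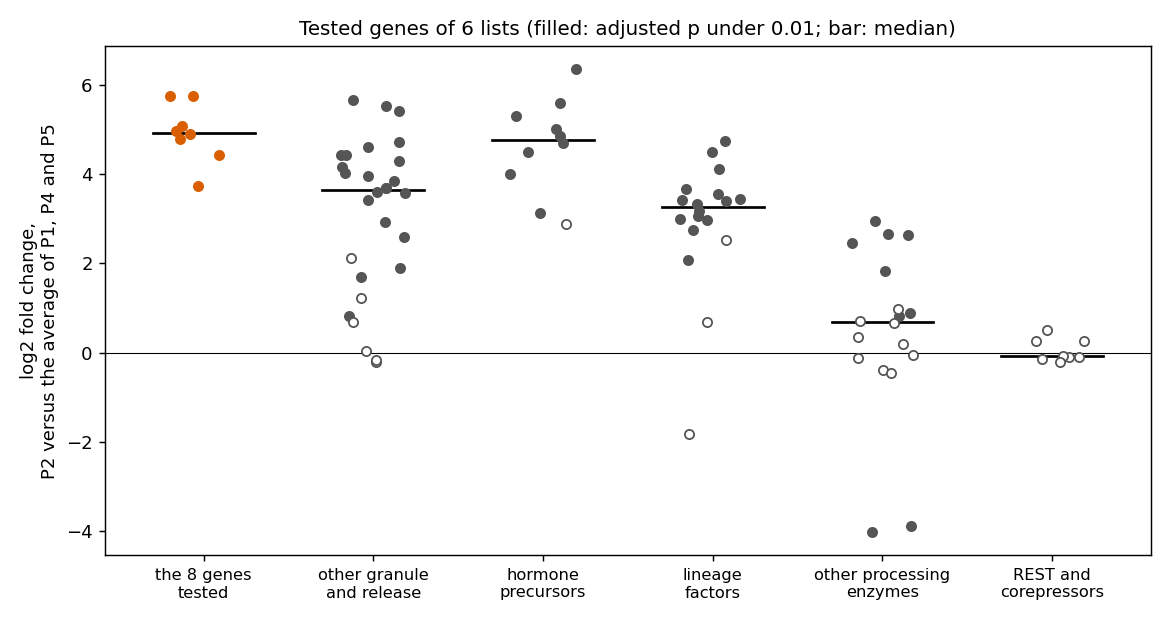
Log2 fold change of P2 over the average of P1, P4 and P5 for each tested gene of 6 lists, filled where the adjusted p was under 0.01, with a bar for the median. The 8 genes described here lie between 3.73 and 5.76, and the medians of the other lists run from -0.08 for REST and corepressors to 4.77 for hormone precursors.

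Markers of other secretory cells moved with the same libraries. All 14 Paneth genes, several of them near-identical defensins whose separate counts are uncertain, 15 of 16 goblet genes and 10 of 13 tuft genes tested were higher in P2 than in the average of the other 4, and 6 of 16 enterocyte genes were lower and 0 higher. Over all genes tested, 16.3% were called higher and 10.7% lower in that comparison. The summed Paneth level was 428131 to 585274 CPM in P2 against 522 to 66821 in the other 8 libraries, the goblet level 56838 to 119162 against 2183 to 10128, and the tuft level 3657 to 3672 against 173 to 471. The summed enterocyte level was 2777 to 6207 CPM in P2 against 5258 to 51509. Of 16 stem cell genes, 7 were higher and 1 lower, at a summed 1938 to 2682 CPM in P2 against 816 to 7983. Of the 6 epithelial genes, Krt18 was higher and Cdx2 lower. Neurons also use dense-core granules, and 2 of 5 tested neuron and glia genes, Ret and Snap25, were higher in P2, where the list of 17 summed to 43.8 to 85.6 CPM against 1.77 to 15.2. The defining neuronal and glial genes Stmn2, Nos1 and Sox10 had 0 counts in all 10 libraries. Of 9 tested immune genes 1, Lyz2, a close paralog of the Paneth gene Lyz1, was higher, and the immune list summed to 71.4 to 90.9 CPM in P2, 354 to 1027 in P1, 6.64 to 164 in P3 and 4.33 to 10.6 in P4 and P5. Of 2 tested endothelial genes 0 were called, with 0 at an unadjusted p under 0.05 and 0 by DESeq2. The 1 tested fibroblast and muscle gene, Tagln, was not called by edgeR (adjusted p = 0.0111), with 1 at an unadjusted p under 0.05 and 1 called by DESeq2. In P2 the fibroblast and muscle list summed to 6.90 to 6.99 CPM and the endothelial list to 4.26 to 7.34, against 1.78 to 7.53 and 1.71 to 4.73 in the other 8 libraries. The part of these other cells in the levels of the granule genes was not tested.

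The genes most alike in pattern were found over the 10 libraries by Pearson's r between a gene's log2 CPM and the mean standardized log2 CPM of the set. The first 10 outside the set were Dnahc9 (r = 0.989), Fer1l6 (0.986), Prnp (0.984), Sct (0.984), Kcnj5 (0.982), Ahnak2 (0.981), Gpr116 (0.981), Ucn3 (0.981), Th (0.981) and Disp2 (0.981). Sct encodes the secretin precursor and Ucn3 that of urocortin 3, and Th is the rate-limiting enzyme of catecholamine synthesis. The 10 points are not independent of the populations, and the P2 libraries stand apart from the other 8, so r mostly reads that distance. By Spearman's rho 2 of the 10 were among the first 10, and without the P3 libraries 6 were. Taken singly, the gene most alike was Chgb for Cpe (r = 0.982), Tph1, the serotonin-synthesis enzyme of enterochromaffin cells, for Scg2 (0.980), Ucn3 for Pcsk1n (0.989), Ahnak2 for Resp18 (0.988), Kcnd3 for Scg3 (0.991), Suox for Scg5 (0.988), 1810043G02Rik for Pcsk1 (0.990) and 2310057J16Rik for Vgf (0.977). No gene of the set had another of the 9 as its closest.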

How the data were processed

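Poly-A RNA of 10 libraries, 2 from each of 5 sorted crypt populations, was analysed from the counts of reads per gene that the authors deposited, one file per library and without normalization. Per the labels and methods, quality was assessed with FastQC 0.11.5, reads were mapped to mm9 with TopHat2 2.1.0 and counted on exons with HTSeq 0.11.2, without regard to strand. The annotation used for counting is not given in the sources used here. Without strand, reads of overlapping genes on opposite strands cannot be told apart. Rows that name no gene took 18.7% to 44.3% of the reads of a library and were left out, and 183 rRNA gene names were removed, as the authors did. Libraries were grouped by their titles.

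Genes were filtered with filterByExpr, which left 13708 genes, and scaled by TMM, with factors of 0.490 to 1.56. Population means were fitted over 10 libraries (5 residual degrees of freedom) with edgeR 4.0.16 (R 4.3.3) and 12 contrasts tested by the quasi-likelihood test, two-sided, with Benjamini-Hochberg adjustment over all genes at an adjusted p under 0.01. Standard errors were derived from the F statistics. CPM are counts per 1000000 of the scaled library. For single genes, 2 libraries against 2 allow no exact test under 0.05. Replicates of a population differed by more than sampling noise, so none was counted as a duplicate. GENCODE on NCBIM37 gave positions and lengths (33643 of 35006 names matched), and RefSeq gave promoters. Levels per length used the gene's exons. Alternatives covered the scaling, filter, threshold, rRNA and mitochondrial genes, DESeq2 1.42.0, the replicate block and each library left out. The procedure was tested on simulated data. Figures were drawn with matplotlib 3.10.9.

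The 9 genes, the gene lists and the tests were chosen with earlier results of these data known, so the members' direction in P2 is not independent evidence. All 9 are named, and from each list at most 4 genes with the largest absolute change among those called in P2 and at most 2 of the most abundant not called. Paneth, goblet, tuft, enterocyte, stem, immune, stromal, endothelial and epithelial lists are given as counts and summed levels. They hold textbook markers and are no published signatures.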

Additional observations from a re-analysis of the deposited data

How the results depend on the processing

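Of 242 counts of called genes over the comparisons and alternatives, 213 stayed within 1.5 times the count reported, 15 were higher and 14 lower, and of 151 fold changes of single genes in P2 against the average of the other populations none changed sign and 2 missed the threshold, both without P2 replicate 2. Over the alternatives the log2 fold change ranged from 3.28 to 4.34 for Pcsk1 and from 3.31 to 6.18 for Vgf. Scaling by total counts only moved the median of all genes by -0.67 on the log2 scale, and relative to that shift the 8 genes stayed higher in P2. With that scaling 3 genes were called in P2 against P4 (Scg5, Scg3 and Resp18) and 2 in P4 against P1 (Pcsk1 and Scg3). Without a filter on low counts the called genes were 8 in P2 against P4, 4 in P4 against P1, 4 in P3 against P4, 1 in P5 against P4, 3 in P5 against P3 and 2 in P5 against P1. At an adjusted p under 0.05 they were 8 in P2 against P4, 2 in P4 against P1 and 1 in P5 against P1. DESeq2 called 2 in P4 against P1 and 1 in P3 against P4. Leaving out 1 library at a time gave 6 to 8 genes in P2 against the average, 3 to 8 against P1, 5 to 7 against P3, 1 to 8 against P4, 1 to 7 against P5, and 0 to 2 in P4 against P1, with 0 in the other comparisons. Such a fit assumes that the lone library of a population varies like the rest. The cause of these changes was not tested, apart from the fewer libraries. Without a filter on low counts 21998 genes were tested. The share of all genes called under each alternative is not given here. These counts therefore cannot tell a change in the set from a general change in calls.

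Same-numbered libraries of 2 populations correlated in their deviations from the population means at r = -0.06 to 0.55 over 10 pairs of populations, over 0.1 in 9 and below 0 in 1 (P2 with P3), so the numbers were not taken as pairs, although 9 pairs deviated together. Not every library thus correlated best with those of its own number, which is a hint from the data and not the design. A fit with the replicate block called 8 genes in P2 against the average, 8 against P1, 7 against P3, 6 against P4, 6 against P5 and 1 in P4 against P1, with 0 in the other comparisons, and Vgf was the gene gained against P1 and against P4. The depth limits Pcsk2, Vgf, Pcsk1n and Resp18 outside P2, where most counts were near the floor of 3, so their order among those populations was not detectable. No library of P3 can be read for genes at 0 beyond the ratios to the floor given.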
